A study of Mus musculus with 10 samples.

Results

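The 34 genes described here belong to the p53 pathway and to the apoptosis machinery it acts on: p53 itself with its main regulators, its classical transcriptional targets, and the Bcl2 family, caspases and repair genes that respond to DNA damage. The rule picks genes by name and uses no measured value, although the list was drawn up with earlier results of these data known. Every non-control probe whose accession belongs to one of them was taken. This gave 45 probes out of 55681 on the array, and 11 of the genes had 2 probes. For each gene the probe with the highest mean over the arrays represents it. By that probe 32 of the 34 genes were well above the scanner's background on at least 3 of the 10 arrays and were tested, and 26 were above it on all 10. *Fas*, which encodes a death receptor, and *Rrm2b*, a ribonucleotide reductase subunit, were never well above background by that probe, so that no level can be given for them.

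The arrays were hybridised with RNA from mouse E14 embryonic stem (ES) cells. The cells had received plasmids for dCas9-VP160, a nuclease-dead Cas9 fused to a transcriptional activator, and for 5 guide RNAs (gRNAs) at once, aimed either at the promoter of the long noncoding RNA *Hottip* (4 arrays) or at that of *Hoxa13* (3 arrays). The control (3 arrays) had non-targeting gRNAs, and the study describes its effector as dCas9 alone, so it may differ from the other groups in the activator too. Puromycin (2 µg/ml) selected transfected cells for 24 h, and RNA was taken 48 h after transfection. All groups thus share transfection, a dCas9 protein and a drug that kills by stopping translation, and no untransfected cells were analysed here.

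The targeted gene was not detected on the arrays labelled for it. *Hoxa13* was well above background by both of its probes on the 4 arrays labelled *Hottip* gRNAs, with levels from 2.58 to 4.16. It was above background on none of the 3 arrays labelled *Hoxa13* gRNAs, where its levels lay from -5.60 to -3.68, against -6.12 to -3.46 in the control. In the log2 table of the authors the means of its probes were 6.66 and 6.86 on the arrays labelled *Hoxa13*, 6.05 and 5.66 in the control, and 13.5 and 13.9 on the *Hottip* arrays. *Hottip* lies beside *Hoxa13* and is known to act on the genes at that end of the cluster. The study reports a rise of *Hoxa13* on its arrays with either guide pool, so a raised *Hoxa13* cannot tell the pools apart. Its reported rise with the *Hoxa13* gRNAs was not seen above background here. Whether labels were exchanged was not tested. A level is the log2 signal minus the 75th percentile of its array, and it can be compared between arrays for a probe but not between probes. The group is therefore called the arrays labelled *Hoxa13* below, and no direction in it can be tied to a raised *Hoxa13*. No probe was named *Hottip*, so the label of the *Hottip* arrays has no direct check.

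The 8 ES cell markers were well above background on all arrays. Of the markers of other cell types, those of trophoblast had a summed level (log2 of the summed signals) of 1.61 to 3.67 on the *Hottip* arrays, 0.93 to 1.94 on those labelled *Hoxa13* and 0.15 to 1.34 in the control. *Cdx2* and *Krt7* of that list and *Gata6*, an endoderm marker, passed the adjusted threshold as higher with *Hottip* gRNAs than in the control, while *Elf5* and *Hand1* were never above background. *Dab2*, another endoderm marker, differed the other way (-3.35 ± 1.46 SE, adjusted p = 0.502, limma). The summed primitive endoderm markers ranged from 1.79 to 6.32 in the control, from 2.33 to 3.22 with *Hottip* gRNAs and from 1.37 to 1.88 on the arrays labelled *Hoxa13*. The part of such cells in the values below was not tested, and in bulk RNA fewer cells of a type and less RNA per cell cannot be told apart.

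p53 is a transcription factor held low in unstressed cells by Mdm2, a ubiquitin ligase that is itself a p53 target, and by the related Mdm4. After DNA damage it binds paired decamers near its target genes. The targets stop the cell cycle (*Cdkn1a*, which encodes p21), permeabilise mitochondria (*Bax*, *Bbc3*, *Pmaip1*), signal through death receptors (*Fas*, *Eda2r*) or repair DNA (*Polk*). Mouse ES cells are known for abundant p53 and a short G1 phase, and for being close to the threshold of apoptosis.

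The decamers are shown because p53 acts on its targets through them. RefSeq promoter windows (GRCm38.p6, 250 bases before to 50 after a start site) were found for 29 of the 34 genes, 40 windows in all. An exact match to the p53 decamer by name, which reads alike on both strands, was in 11 of the 40 windows (27.5%) and in 8.36% of all 32851 windows. A pair of decamers at most 13 bases apart, with at most 2 mismatches in all outside the fixed C and G of each, was in 5 member windows (12.5%) and in 4.09% of all. These matches are descriptions of sequence, and binding was not measured. The 5 stretches are given 5′ to 3′ on the strand of the gene, with both decamers in capitals.
Cdkn1a, chr17:29090891-29090952, plus strand, no mismatch: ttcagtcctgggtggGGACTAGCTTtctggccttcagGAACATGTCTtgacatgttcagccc
Ccng1, chr11:40755447-40755496, minus strand, 1 mismatch: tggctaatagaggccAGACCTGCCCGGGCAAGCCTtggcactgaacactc
Bax, chr7:45467075-45467129, minus strand, 2 mismatches: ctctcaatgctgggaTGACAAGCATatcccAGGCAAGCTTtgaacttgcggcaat
Gadd45a, chr6:67037423-67037483, minus strand, 2 mismatches: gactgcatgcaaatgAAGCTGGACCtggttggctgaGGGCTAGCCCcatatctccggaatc
Sesn1, chr10:41887238-41887290, plus strand, 2 mismatches: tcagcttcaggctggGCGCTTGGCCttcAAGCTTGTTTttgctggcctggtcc
The spacing between the decamers in capitals ranged from 0 bases in *Ccng1* to 12 in *Cdkn1a*. In the *Cdkn1a* stretch the second decamer also forms a pair with the lower-case bases right after it, 0 bases apart and with 1 mismatch. The 10 members with an exact decamer had a median log2 difference of 0.052 for *Hottip* gRNAs against control, and the 18 tested members whose windows lacked it had 0.092. For the arrays labelled *Hoxa13* against control these medians were 0.29 and 0.26.

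The first question was whether cells that received *Hottip* gRNAs differed from the control in this readout of damage. No member passed an adjusted p of 0.05 (limma moderated test, Benjamini-Hochberg over all probes tested), and 1.06% of all genes did. By the probes that represent the genes, 1 of 32 members, *Sesn1*, had an unadjusted p under 0.05, and so did 9.48% of all genes (4.43% higher and 5.05% lower). Of the 32 members 17 were higher and 15 lower with *Hottip* gRNAs, with a median log2 difference of 0.052 against -0.013 over all genes. Of the 24 members measured on every array of both groups, none had *Hottip* arrays all above the control (4.33% of genes did) or all below it (6.89%).

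**Figure D1:**
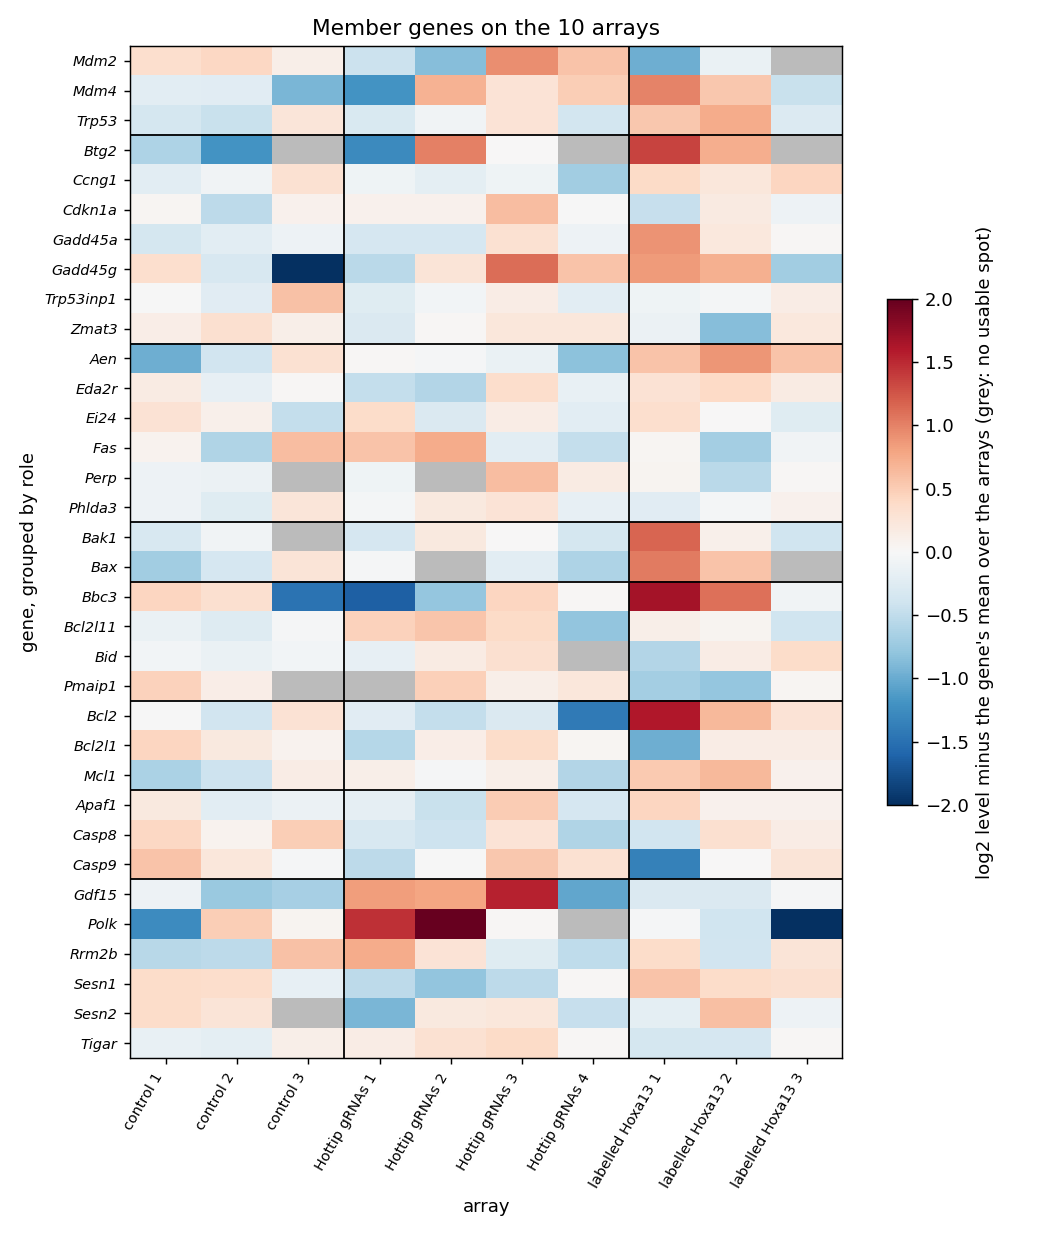
Heat map of the 34 member genes (rows, in blocks by role) on the 10 arrays (columns, control, *Hottip* gRNAs and labelled *Hoxa13*). Colour is the log2 level minus the mean of the gene over the arrays, cut at 2 on either side, and grey marks arrays whose spot was an outlier. No block of genes is uniformly red or blue in 1 group.

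*Trp53*, which encodes p53, had levels of 2.84, 2.74 and 3.44 on control arrays 1 to 3. On the *Hottip* arrays 1 to 4 it was at 2.89, 3.13, 3.47 and 2.83, which lie inside the control range but for the third, just above it. The difference was 0.073 ± 0.33 (SE, as after every ± below; adjusted p = 0.988, limma), with a 95% confidence interval from -0.67 to 0.81. *Mdm2* was at 2.71, 2.78 and 2.49 in the control. With *Hottip* gRNAs it was at 1.95, 1.52, 3.30 and 2.94, so that arrays 1 and 2 were below every control array and arrays 3 and 4 above every one. Arrays 1 and 2 and control array 3 lay in row 1 of the slide, and the others in row 2. *Hottip* arrays 3 and 4 were also the only arrays without multiplicative detrending, a step of the scanner software. Among the *Hottip* arrays row and detrending thus cannot be told apart. Within the rows the *Mdm2* difference was -0.76 and 0.38.

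The rows were compared for this reason. Deviations from the group mean were taken over the probes well above background on all 10 arrays. They correlated at 0.062 to 0.43 between *Hottip* and control arrays of the same row, and at -0.45 to -0.21 across rows. Deviations within a group cancel out, so the opposite signs are partly built in. Of 27 members with values in both rows, 15 (55.6%) had differences of opposite sign in the 2 rows, and so did 46.8% of all 10484 genes with values in both. With the row as a block there was again no member past the threshold.

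*Cdkn1a*, the p21 cell cycle inhibitor and a classical reporter of p53, was measured by a probe with 10 spots per array. Control arrays were at 1.26, 0.69 and 1.30. The *Hottip* arrays were at 1.29, 1.29, 1.82 and 1.20, of which the third stood above the rest. The groups overlapped and the difference was 0.32 ± 0.29 (adjusted p = 0.866, limma). Its 95% interval, -0.33 to 0.97, stayed below a 2-fold rise. The other genes of growth arrest and feedback were *Gadd45g* (1.11) and *Gadd45a* (0.10), stress sensors, *Btg2* (0.83), an antiproliferative cofactor, *Ccng1* (-0.27), an Mdm2 partner, *Trp53inp1* (-0.21) and *Zmat3* (-0.14), an RNA-binding protein. Values in parentheses are log2 differences. None passed the adjusted threshold. *Gadd45g* had a wide interval, -0.35 to 2.57. *Btg2* rested on 3 *Hottip* and 2 control arrays.

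*Sesn1*, which encodes a stress-induced regulator of mTORC1, had the smallest unadjusted p by the probes that represent the genes. It was at -1.37, -1.37 and -1.90 in the control. With *Hottip* gRNAs it was at -2.26, -2.53, -2.25 and -1.71, and array 4 lay within the control range. The difference was -0.64 ± 0.28 (unadjusted p = 0.0457, adjusted p = 0.506, limma), and the exact two-sided permutation p was 0.114, where 4 against 3 arrays cannot go below 0.0571. Within the rows it was -0.49 and -0.61. Its signal cleared the background on 1 of 4 *Hottip* arrays and on 2 of 3 control arrays.

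*Gdf15*, a stress-induced secreted cytokine, was at -0.11, -0.15, 0.60 and -1.99 on the *Hottip* arrays. The control was at -1.04, -1.68 and -1.61, so 3 of 4 *Hottip* arrays lay above all control arrays and array 4 below all of them. The difference was 1.03 ± 0.53 (adjusted p = 0.606, limma). Without *Hottip* array 4 it was 1.56 (unadjusted p = 0.000923, limma), and the smallest adjusted p of *Gdf15* over all alternatives was 0.102. *Polk*, a translesion DNA polymerase, was at 0.82, 1.71 and -0.61 with *Hottip* gRNAs (array 4 had no usable spot) against -1.90, -0.14 and -0.57. It was not well above background on any control array, where its level is only a bound, and the groups overlapped (adjusted p = 0.660, limma). *Polk* passed the filter through 3 *Hottip* arrays and 1 labelled *Hoxa13*, and would not have passed without the *Hottip* arrays. The remaining genes of this class were *Sesn2* (-0.55, 2 control arrays), a second sestrin, and *Tigar* (0.29), a fructose bisphosphatase.

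Among the genes that carry out apoptosis no difference between the same groups passed the adjusted threshold. *Casp8*, the initiator caspase of death receptors, was at -0.72, -1.07 and -0.64 in the control. It was at -1.46, -1.55, -0.85 and -1.73 with *Hottip* gRNAs, where array 3 lay within the control range and the others below it (-0.59 ± 0.30, adjusted p = 0.611, limma). *Casp9*, the initiator caspase of the mitochondrial route, differed by -0.18 and *Apaf1*, its scaffold, by -0.066. The pore-forming effectors *Bax* and *Bak1* differed by -0.019 and 0.080. Among the BH3-only activators the differences were -0.25 for *Bbc3* (Puma), -0.028 for *Pmaip1* (Noxa), 0.29 for *Bcl2l11* (Bim) and 0.19 for *Bid*. The anti-apoptotic *Bcl2l1* and *Mcl1* differed by -0.24 and 0.21. *Bcl2* was well above background on no *Hottip* array and on 1 of 3 control arrays. Most of its control levels are thus bounds too, and no minimum fold is given for *Bcl2*. Its difference was -0.57 (adjusted p = 0.793, limma), and the arrays of the groups overlapped. The confidence interval, from -1.48 to 0.34, included no change. The receptor *Eda2r* (-0.22, and -1.10 ± 0.39 at its dimmer probe, with an unadjusted p of 0.0171 and an adjusted p of 0.350, limma) and the pro-apoptotic targets *Perp* (0.34), a membrane protein, *Aen* (0.12), an exonuclease, *Phlda3* (0.10), an Akt inhibitor, and *Ei24* (0.031) completed the list. *Bax*, *Bak1* and *Bid* lacked 1 array in this comparison, and *Pmaip1* and *Perp* lacked 2.

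**Figure D2:**
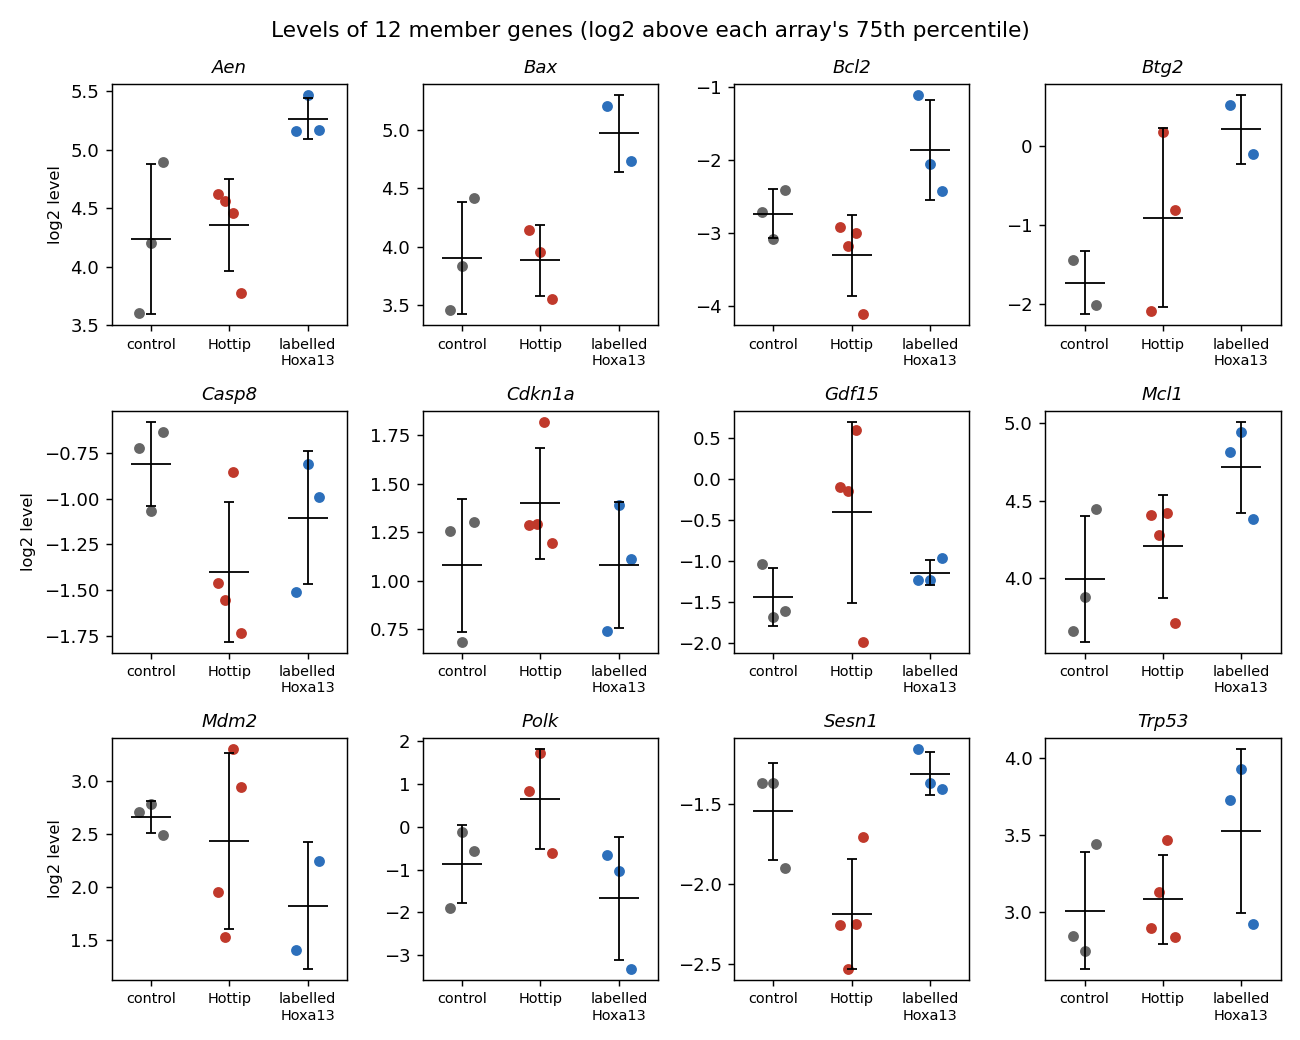
Levels of 12 member genes on each array (points; y axis, log2 level above the 75th percentile of the array, with its own range in each panel) by group, with mean (bar) and SD (whiskers). *Aen* and *Bax* lie higher on every usable array labelled *Hoxa13* than on any other array, and *Trp53*, *Cdkn1a* and *Mcl1* overlap in all groups.

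The second question was the same for the arrays labelled *Hoxa13* against the control. Again no member passed the adjusted threshold (limma), and 0.129% of all genes did. By the probes that represent the genes, the members with an unadjusted p under 0.05 were *Aen*, *Bax* and *Btg2*, 3 of 32 (9.38%), all higher. Of all genes 9.93% were higher at that threshold and 13.5% in either direction (3.56% lower). Second probes with such a p were those of *Aen*, *Cdkn1a* and *Polk*, higher, and of *Bcl2l1*, lower. The median difference of the 32 members was 0.15 against 0.16 over all genes, with 19 higher and 13 lower. Of 25 members measured on every array of both groups, *Aen*, *Eda2r* and *Gadd45a* were higher on each array labelled *Hoxa13* than on each control array (12%), and 12.1% of all genes were. None lay wholly below the control, as 6.47% of genes did.

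*Aen* encodes a nuclease that digests DNA in apoptosis. It was at 5.16, 5.47 and 5.17 on the arrays labelled *Hoxa13*. The control was at 3.61, 4.20 and 4.89, and no array overlapped. The difference was 1.03 ± 0.38 (unadjusted p = 0.0208, adjusted p = 0.318, limma), and the exact permutation p was 0.1, the smallest that 3 against 3 arrays allow. Its other probe gave 1.16. On the slide that held all 3 groups the difference was 0.93, from 1 array labelled *Hoxa13*. *Bax* was at 5.20 and 4.73 on the first and second of these arrays, and the third had no usable spot. The control was at 3.46, 3.83 and 4.42, which gave 1.07 ± 0.40 (adjusted p = 0.326, limma). The arrays labelled *Hoxa13* with a value for *Bax* were on a slide without controls, and slide and group cannot be told apart for it.

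Both genes are among the bright probes, and bright probes as a class were higher on the arrays labelled *Hoxa13*. Probes with a mean level of 3 and over had a median difference of 0.63, and those under -1 had -0.027. With quantile normalization *Aen* differed by 0.31, and with the values of the authors *Bax* differed by 0.33, the smallest difference of each over the alternatives. Both kept their sign in all alternatives, and the part of brightness in their differences was not tested. Spike-in controls had a slope of 1.16 on array 1 of this group and of 0.900 to 0.982 on the other 9 arrays.

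*Btg2* was at 0.52 and -0.10 on the first and second arrays labelled *Hoxa13*. It was at -1.45 and -2.02 on control arrays 1 and 2, and array 3 of either group had no usable spot. The difference of 1.95 ± 0.73 (adjusted p = 0.329, limma) thus rests on 2 arrays per group, all those labelled *Hoxa13* on a slide of their own, and the slide and the group cannot be told apart for this gene. *Mcl1*, a short-lived survival factor, was at 4.82, 4.94 and 4.38 against 3.66, 3.88 and 4.45, with overlap. It differed by 0.72 ± 0.33 (adjusted p = 0.354, limma), but by -0.035 with the values of the authors and by -0.16 at its second probe.

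The p53 module itself had no common direction here. *Trp53* was at 3.73, 3.93 and 2.92 on the arrays labelled *Hoxa13*, a difference of 0.52 ± 0.35 from the control (adjusted p = 0.484, limma). The third of these arrays, which shared a slide with the control, lay within the control range, and with the slide as a block the difference was -0.088. *Mdm2* was at 1.40 and 2.24 on the first and second arrays, both below the control, and the third had no usable spot (-0.84 ± 0.55, adjusted p = 0.470, limma), so that slide and group cannot be told apart here either. *Mdm4* differed by 0.82. *Cdkn1a* was at 0.74, 1.39 and 1.11, within the control range but for the highest, and its difference was -0.00033 with a 95% interval from -0.70 to 0.70.

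Other members had the following log2 differences from the control on the arrays labelled *Hoxa13*. Those of growth arrest and feedback were 1.05 for *Gadd45g*, 0.59 for *Gadd45a*, 0.34 for *Ccng1*, -0.11 for *Trp53inp1* and -0.44 for *Zmat3*. The BH3-only genes lay from -0.77 for *Pmaip1* to 1.13 for *Bbc3*, with *Bcl2l11* at 0.067 and *Bid* at 0.060. *Bak1* was at 0.48, and *Bcl2* and *Bcl2l1* had opposite signs, 0.88 and -0.46. The apoptosome genes were at 0.25 for *Apaf1*, -0.30 for *Casp8* and -0.63 for *Casp9*. The pro-apoptotic *Eda2r*, *Ei24*, *Phlda3* and *Perp* lay from -0.041 to 0.28. *Gdf15*, *Sesn1*, *Tigar*, *Sesn2* and *Polk* ran from 0.30 down to -0.80. Control array 3 had no usable spot for *Pmaip1*, *Bak1*, *Perp* and *Sesn2*.

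**Figure D3:**
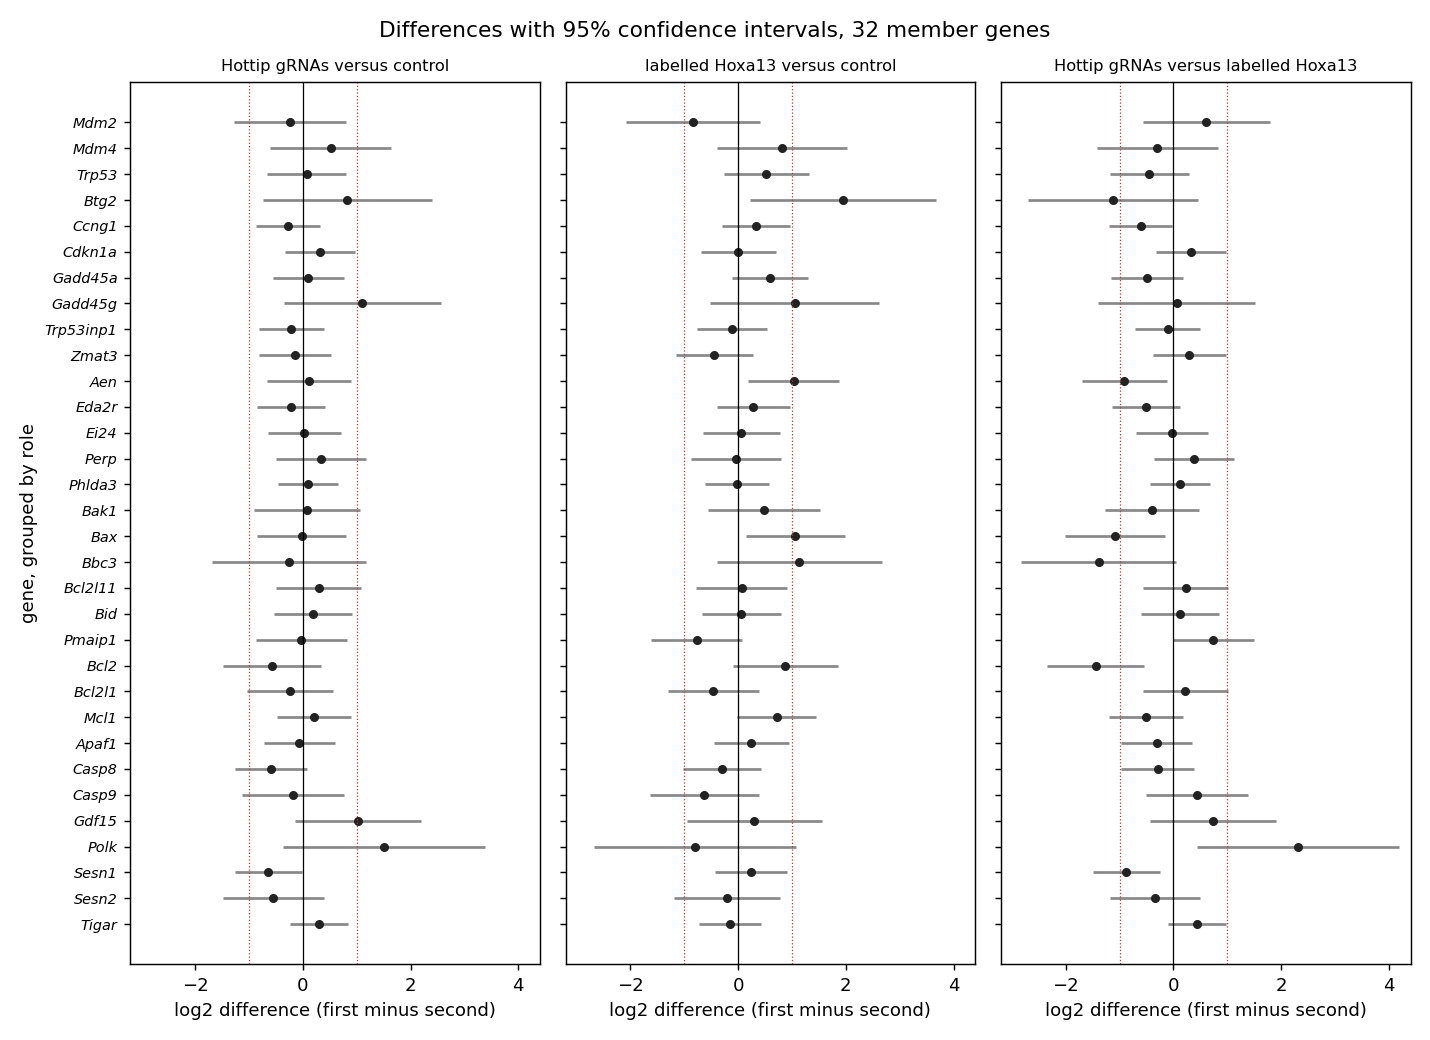
Log2 differences (points) with 95% confidence intervals (lines, limma) of the 32 tested member genes in the 3 comparisons, first group minus second. Dotted lines mark a 2-fold difference. The intervals of 16, 12 and 9 genes lie wholly inside those lines in the panels from left to right.

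The size of what could have been seen is set by these intervals. For *Hottip* gRNAs against control the standard errors of the 32 members ran from 0.24 to 0.83 with a median of 0.35. A 2-fold rise lay outside the 95% interval of 23 of them, and both a 2-fold rise and a 2-fold fall outside that of 16. For the arrays labelled *Hoxa13* these numbers were 19 and 12. For the remaining members a change of that size lay within the interval in at least 1 direction.

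The third comparison set the arrays of the guide pools against each other. It shares the arrays of both earlier comparisons, and is not independent of them. No member passed the adjusted threshold (limma), as 0.719% of all genes did. By the probes that represent the genes, 6 members had an unadjusted p under 0.05 (18.8%, against 14.0% of all genes). They were *Bcl2*, *Sesn1*, *Bax*, *Aen* and *Ccng1*, lower with *Hottip* gRNAs, and *Polk*, higher. Of these, *Bcl2* and *Polk* would not have passed the filter on dim probes without the group where they were higher. Second probes with such a p were those of *Aen*, *Cdkn1a* and *Eda2r*, all lower. The share lower was 15.6% among the members and 9.39% among all genes, and the share higher 3.12% and 4.59%. The median difference was -0.20, and -0.22 over all genes. *Aen*, *Bcl2*, *Ccng1* and *Sesn1* were lower on each *Hottip* array than on each array labelled *Hoxa13*, 4 of 25 members (16%) against 9.86% of genes, and none was higher on each *Hottip* array, as 3.65% of genes were.

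*Bcl2*, the founding survival gene of its family, had the smallest p by the probes that represent the genes. The second, dimmer probe of *Cdkn1a* had a smaller one (-1.34 ± 0.34, unadjusted p = 0.00291, adjusted p = 0.139, limma), where its first probe gave 0.32. *Bcl2* was at -2.92, -3.18, -3.00 and -4.12 on the *Hottip* arrays, and well above background on none, so that these levels are only bounds. It was at -1.10, -2.05 and -2.42 on the arrays labelled *Hoxa13*, and above background on 2 of them. Without these arrays *Bcl2* would not have passed the filter, so its p is no independent support for the difference. The log2 difference was -1.44 (unadjusted p = 0.00530, adjusted p = 0.175, limma, and exact permutation p = 0.0571). Its confidence interval ran from -2.35 to -0.54. The array labelled *Hoxa13* that was not above background also gives only a bound, so no minimum fold is given. On the slide with all groups the log2 difference was -0.88 with 1 array labelled *Hoxa13*. *Sesn1* was at -1.16, -1.37 and -1.41 on the latter arrays, close together and above each *Hottip* array (-0.88 ± 0.28, adjusted p = 0.222, limma). *Polk* was at -0.66, -1.04 and -3.31 there and differed by 2.31 ± 0.83, but its second probe differed by -1.03.

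The probes of a gene did not always give the same result. Of 8 genes with both probes tested, 6 had the same sign at both in *Hottip* gRNAs against control, and 5 did in each of the other comparisons. *Aen*, *Bcl2l1*, *Eda2r*, *Tigar* and *Trp53inp1* had the same sign at both probes in all 3. For *Cdkn1a* the second, dimmer probe gave 1.24 ± 0.37 for the arrays labelled *Hoxa13* against control (adjusted p = 0.294, limma), where the first gave -0.00033. For *Bcl2l1*, the gene of Bcl-xL, the values were -2.81 and -0.46. *Polk* gave 1.93 at the second probe and -0.80 at the first, and the first was well above background on no control array and on 1 array labelled *Hoxa13*. Different probes can read different transcripts, and which was read was not tested.

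**Figure D4:**
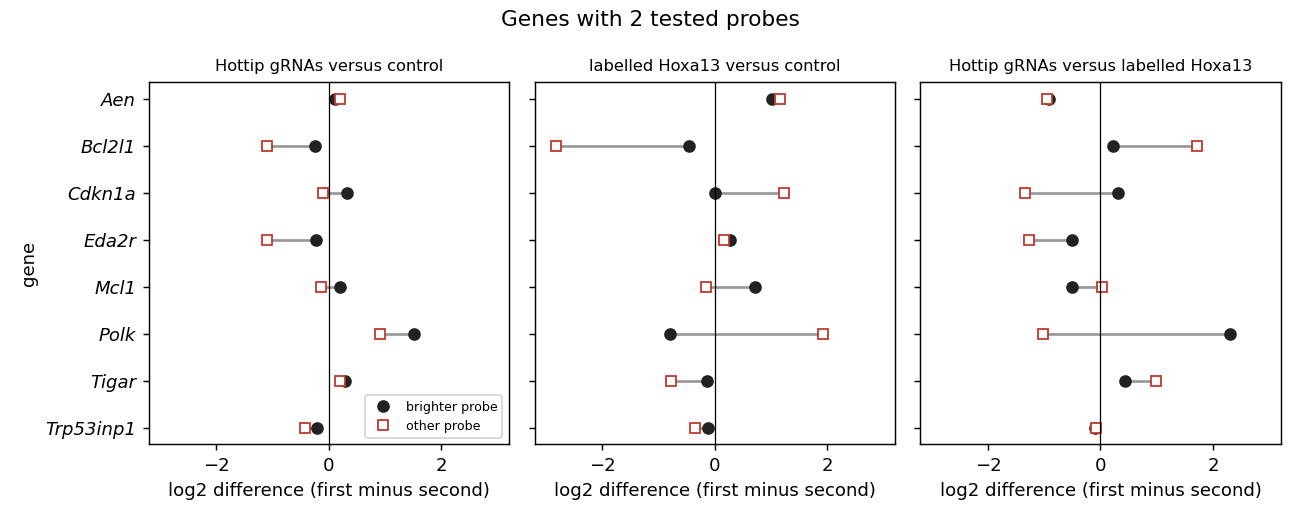
Log2 differences of the 8 member genes with 2 tested probes, at the brighter probe (filled circles) and the other (open squares), first group minus second in each panel. *Aen* has its probes close together in all panels, and *Polk*, *Cdkn1a* and *Bcl2l1* have them over 1 log2 unit apart in the panels with arrays labelled *Hoxa13*.

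A wider list of 55 further genes of the same pathway, among them death receptor adaptors and excision repair genes, was set beside the members. Of these 53 were tested, and none passed the adjusted threshold in any comparison (limma). For *Hottip* gRNAs against control 2 of the 53 were higher and 7 lower at an unadjusted p under 0.05, with a median of -0.033. Over all genes 4.43% were higher and 5.05% lower at that threshold. For the arrays labelled *Hoxa13* against control 5 of the 53 were higher and 1 lower, beside 9.93% and 3.56% of all genes. *Dffa*, the inhibitor of the apoptotic DNase, had the smallest p there (1.21 ± 0.32, adjusted p = 0.258, limma). *Dffa* also had it between the guide pools (-1.24 ± 0.30, adjusted p = 0.131, limma). In that comparison 1 of the 53 was higher and 8 lower, beside 4.59% and 9.39% of all genes.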

How the data were processed

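RNA of 10 samples was labelled with Cy3 and hybridised to one-colour Agilent mouse arrays, 1 per sample. The authors deposited scanner output (Feature Extraction 11.5.1.1) with a processed signal, an intensity after background subtraction and, on all but 2 arrays, multiplicative detrending. They also deposited a table of log2 values, made with limma per the labels' processing notes; its columns have the rank order of the median minus background signal. Here log2 of the processed signal minus the 75th percentile of its array was used, control and outlier spots were left out, and spots of a probe were averaged. Genes were named from accessions through RefSeq (GRCm38.p6), which named 27650 probes.

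Groups came from the labels. limma 3.58.1 in R 4.3.3 was fitted to all 10 arrays with group means, on probes well above background on at least 3 arrays, with Benjamini-Hochberg adjustment. Exact permutation tests were two-sided (SciPy 1.17.1). The fit was checked on simulated data. Arrays were described as separate biological replicates per the labels, and their number limits the precision. The alternatives changed scaling, background, filter, probe choice, blocks and arrays. Members and lists were chosen with earlier results of these data known. All members are named by role; array values are given for *Trp53*, *Mdm2*, *Cdkn1a* and the 4 members with the smallest p in each comparison. Some results of the wider pathway list are not reported here.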

Additional observations from a re-analysis of the deposited data

Results flagged for a closer look

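Among 26 members with 4 usable *Hottip* arrays, a single array stood far from the other 3 in 2 cases. By chance about 1 in 20 genes pass the threshold used, so 2 of 26 is near that share. The share over all genes was not worked out. *Bcl2l11* was at -0.95 on array 4 and at 0.22 to 0.40 on the others, a gap of 0.869 of the whole range. *Cdkn1a* was at 1.82 on array 3 and at 1.20 to 1.29 on the others, a gap of 0.845 of the range. With the values of the authors these shares were 0.608 and 0.705, under the threshold used, while *Gdf15* (0.925), *Eda2r* (0.907) and *Mdm4* (0.862) passed it.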

How the results depend on the processing

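No member passed the adjusted threshold in any comparison under any of the 26 alternatives. Over all probes the number called varied: 212 for *Hottip* gRNAs against control (121 higher), with 30 to 523 under the alternatives, 31 for the arrays labelled *Hoxa13* (1 to 113), and 143 between the guide pools (11 to 260). The lowest count was given by the replicate block, except for the arrays labelled *Hoxa13*, where a filter on all 10 arrays gave it. The highest was given by the slide as a block, and between the guide pools by leaving out array 3 labelled *Hoxa13*. The median of the members followed the scaling, as did that of all genes. For *Hottip* gRNAs against control it was 0.31 with median centring and -0.15 with normexp (chosen after seeing the data). For the arrays labelled *Hoxa13* against control it was -0.028 with quantile normalization, -0.26 with the percentile over probes detected on all arrays, -0.079 with normexp and quantiles, -0.088 with the values of the authors and -0.033 with normexp and the percentile. Between the guide pools it was 0.12 with quantile normalization, 0.075 with median centring, 0.16 with the percentile over detected probes, 0.0096 with normexp and quantiles and 0.012 with the values of the authors. The cause was not tested. Relative to the median of all genes, the median of the members stayed between -0.15 and 0.17 in all settings. Replicate numbers did not pair the arrays (correlations of deviations from -0.36 to 0.16), and with the replicate block the medians were 0.083, 0.15 and -0.12. Leaving out single arrays kept each median within the spread between arrays. *Sesn1* (*Hottip* against control) kept its sign in all 22 alternatives with a value and an unadjusted p under 0.05 in 5. In the same comparison *Gdf15* kept its sign in 23 and had such a p in 4 (0.70 to 1.56), and *Polk* in 22 and 5 (0.97 to 2.13). For the arrays labelled *Hoxa13* against control *Aen* did so in 22 and 12, *Bax* in 21 and 12, and *Btg2* in 20 and 9, while *Polk* ran from -2.44 with the slide as a block to 0.62 with normexp.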
